A study of Arabidopsis thaliana with 9 samples.

Results

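Roots of the line 35S:ERF13:MYC were compared with wild-type (WT) roots across all genes that passed a filter on low counts, 19714 of the 24140 genes seen in any library of the study. The line carries ERF13, a transcription factor, joined to a MYC tag and driven by the 35S promoter, a viral promoter active in most plant cells. Seedlings of both genotypes of Arabidopsis thaliana were 9 days old and had grown on 1/2 MS medium, and RNA was taken from their roots. Each genotype gave 3 libraries, and the 3 libraries of a further ERF13 line, erf13-3, entered the same fit so that all 9 libraries shared an estimate of the spread, but no values of that line are given here. The labels state neither how many independent transformants the line stands for nor whether its libraries came from separate plants. The p-values set the difference between the genotypes against the spread within genotypes over the 9 libraries. That spread may be partly or wholly technical, so the p-values speak for these 6 samples only. The 6 libraries held 12147128 to 12324144 expected counts each, so depth differed little. WT replicate 3 stood apart from the other WT libraries on the second principal component of the 6 libraries (13.1% of the variance), at -30.9 against 21.3 and 16.3 for the others, and values that rest on it are marked where they occur. On the same component 35S:ERF13:MYC replicate 1 lay on the side of WT replicate 3, at -17.9 against 1.9 and 9.41 for the others of the line. The 35S:ERF13:MYC libraries stood apart from WT on the first component (71.4%). At the edge of the filter, which asks for enough counts in several libraries, the tested genes with the lowest sums over the 9 libraries were AT4G28420, RK2 and HDG9 (35, 38 and 39 counts), and the untested genes with the highest sums were AT5G49770, AT4G22485 and G3Pp3 (96, 109 and 117 counts).

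ERF13 belongs to the AP2/ERF family, plant transcription factors named for ethylene response factors. Many members bind a GC-rich promoter element called the GCC box, and relatives in the DREB branch bind the element known as DRE. A root is built in rings: an epidermis with hairs, a cortex, an endodermis sealed by the Casparian strip, and a central cylinder of pericycle, phloem and xylem. Very-long-chain fatty acids, the building blocks of wax and suberin, are lengthened by 3-ketoacyl-CoA synthases, of which KCS16 is a member.

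ERF13 (AT2G44840, chromosome 2, 18495215 to 18496327, plus strand, TAIR10.1) was the gene overexpressed. It stood at 904.96, 789.36 and 772.94 FPKM (the authors' level, scaled for gene length and library depth) in the 35S:ERF13:MYC libraries, against 1.03, 0.96 and 1.25 FPKM in the WT libraries. Every library of the line was far above every WT library, and ERF13 rose by 9.45 on the log2 scale (standard error, SE, 0.18, and adjusted p = 4.7e-11 by edgeR's quasi-likelihood test over all genes tested). The tables do not separate transcripts of the transgene from those of the native gene. KCS16 (AT4G34250, chromosome 4, 16394600 to 16396703, plus strand) stood at 0.31, 0.54 and 0.58 FPKM in 35S:ERF13:MYC roots, against 1.65, 1.26 and 1.5 FPKM in WT roots. KCS16 fell by 1.73 on the log2 scale (SE 0.24, adjusted p = 0.00024), and the genotypes did not overlap, though its level was low in both. The 250 bases upstream of the annotated start of each gene are shown because the motif search described below covered them. They come from the RefSeq genome TAIR10.1 and are written 5′ to 3′ on the strand of the gene (ERF13 chr2:18494965-18495214, plus strand, and KCS16 chr4:16394350-16394599, plus strand). No base is in capitals, since neither stretch holds the GCC core GCCGCC or the DRE core CCGAC on either strand.
ERF13: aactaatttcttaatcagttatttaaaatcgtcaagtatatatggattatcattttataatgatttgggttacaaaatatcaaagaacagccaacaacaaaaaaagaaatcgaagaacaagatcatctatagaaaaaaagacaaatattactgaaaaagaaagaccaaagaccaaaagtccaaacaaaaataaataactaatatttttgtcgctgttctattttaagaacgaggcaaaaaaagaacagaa
KCS16: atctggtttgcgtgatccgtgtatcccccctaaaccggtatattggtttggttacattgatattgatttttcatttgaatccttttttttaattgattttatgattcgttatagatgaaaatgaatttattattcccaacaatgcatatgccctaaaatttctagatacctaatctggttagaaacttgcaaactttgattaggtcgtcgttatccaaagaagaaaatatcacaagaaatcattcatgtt

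**Figure D1:**
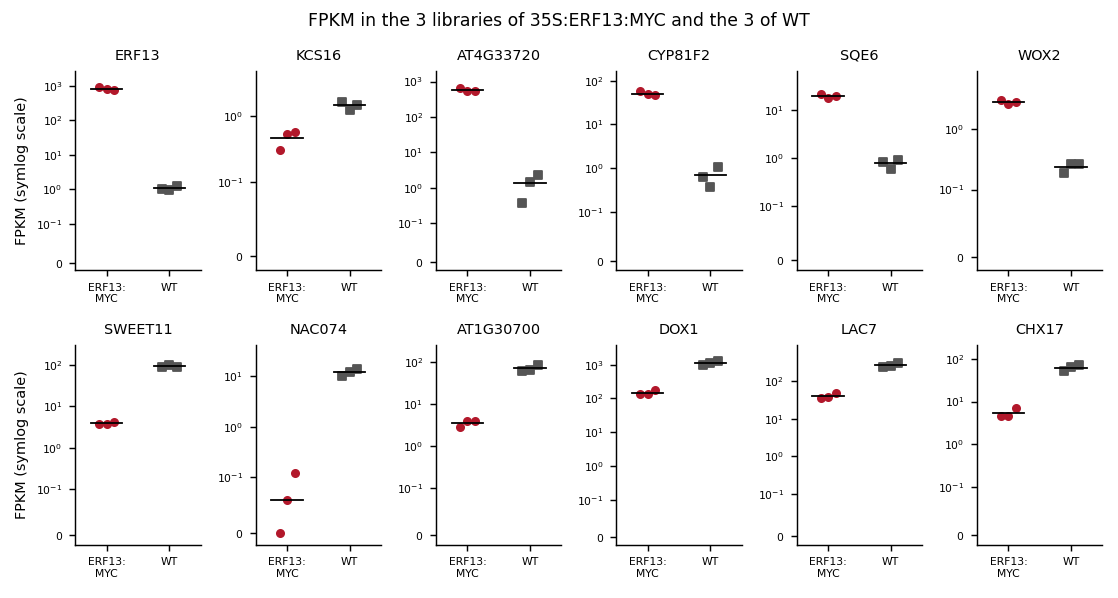
FPKM of 12 genes in each library (log-like axis that is linear near 0), with 35S:ERF13:MYC libraries left of WT libraries; points are libraries and horizontal lines are means. ERF13, AT4G33720, CYP81F2, SQE6 and WOX2 lie higher in every 35S:ERF13:MYC library than in any WT library, and KCS16, SWEET11, NAC074, AT1G30700, DOX1, LAC7 and CHX17 lie lower in every one.

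Of the 19714 genes tested, 6209 (31.5%) were called at an adjusted p under 0.05, 2713 (13.8%) higher and 3496 (17.7%) lower in 35S:ERF13:MYC roots. Changes of at least 2-fold were called for 420 genes higher (2.13%) and 1009 lower (5.12%), and changes of at least 8-fold for 58 higher and 96 lower. The 3 libraries of the line and the 3 of WT did not overlap for 10014 genes (50.8%). The genes called higher took 16.9% of the counts of the line and 11.1% of those of WT, while the genes called lower took 19.8% of the counts of the line and 29.8% of those of WT. Among the 100 genes with the highest FPKM in WT, 49 were called lower and 5 higher. Ranking genes by their WT level favours falls in this count. Genes called higher likewise hold a larger share in the line by their selection, and genes called lower a larger share in WT. Without 35S:ERF13:MYC replicate 2 the calls fell to 3903 in all and 1441 higher, and leaving out WT replicate 2 or 35S:ERF13:MYC replicate 3 gave 1764 or 1793 higher. The split between higher and lower rests on the scaling between libraries. With TMM factors 43.7% of the calls were higher, and with library totals alone 60.6%, since the median log2 fold change of all genes is 0.134 under that scaling and 0.0234 with TMM factors. In bulk RNA, fewer cells of a type and less RNA per cell cannot be told apart, which holds for every result below.

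**Figure D2:**
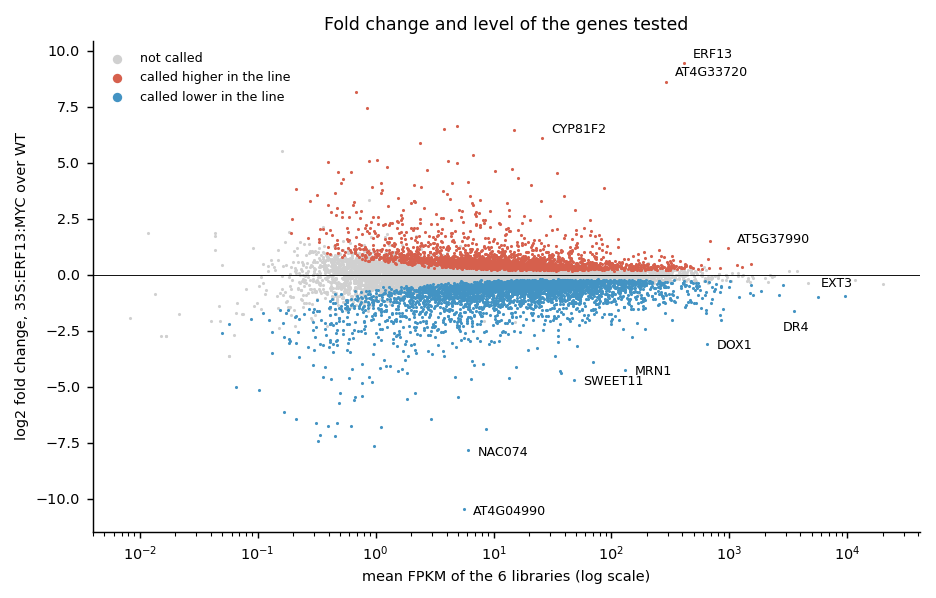
Log2 fold change (35S:ERF13:MYC over WT, vertical axis) against mean FPKM over the 6 libraries (log axis, horizontal) for the genes tested, with called genes coloured by direction and the named genes labelled; 3 genes at FPKM 0 in all 6 libraries are not drawn. ERF13 and AT4G33720 stand alone at high level and high fold change, and falls past 2-fold (1009 genes) outnumber rises past 2-fold (420 genes).

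Besides ERF13, a rise large both in level and in fold was that of AT4G33720 (chromosome 4, 16182743 to 16183619), which encodes a secreted CAP protein related to the defence protein PR-1. AT4G33720 stood at 679.54, 525.63 and 535.05 FPKM in 35S:ERF13:MYC roots, against 0.38, 1.41 and 2.27 FPKM in WT roots. It was close to silent in WT and among the abundant transcripts of the line (log2 fold change 8.62, SE 0.45, adjusted p = 1.9e-07, and 9.23 without WT replicate 3). It has no symbol in the annotation, and the largest changes in fold among such genes were added after their values were seen. Other genes named below by locus alone were added likewise or came from a rule of choice, as AT1G21313 did by difference in FPKM. CYP81F2, a cytochrome P450 that hydroxylates indole glucosinolates, stood at 56.86, 48.96 and 46.71 FPKM in the line, against 0.64, 0.37 and 1.05 FPKM in WT. CYP81F2 rose by 6.09 on the log2 scale (SE 0.21, adjusted p = 1.4e-08). The rules for the largest changes, in fold or in FPKM, took only genes whose genotypes did not overlap. CCOAMT, a caffeoyl-CoA O-methyltransferase homologue, stood at 8.36, 9.43 and 11.39 FPKM in the line, against 0.09 FPKM in each WT library. With so few WT counts, the ratio of its summed counts was 111, with an exact 95% interval of 37.7 to 541 for counting error only. AT4G21920, annotated as an uncharacterised protein, gave a ratio of 106 (29.1 to 884).

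Other rises passed the same bars at moderate levels. SQE6, of the squalene epoxidase family, stood at 22.39, 17.9 and 19.5 FPKM in 35S:ERF13:MYC roots, against 0.84, 0.59 and 0.93 FPKM in WT roots (log2 fold change 4.62, SE 0.18, adjusted p = 2.8e-08). CYP706A1, another P450, stood at 33.52, 27.74 and 22.61 FPKM in the line, against 0.6, 0.83 and 1.5 FPKM in WT (4.72, SE 0.36). BGLU32, a beta-glucosidase, rose by 5.88 on the log2 scale (SE 0.35), and AT2G24600, an ankyrin repeat protein, by 5.34 (SE 0.22). For these 4 genes the lowest library of the line lay above the highest WT library, as the rule for the largest changes required. CP12-2, a chloroplast protein that binds and holds inactive a pair of Calvin cycle enzymes, stood at 30.06, 33.32 and 30.09 FPKM in the line, against 0.79, 1.71 and 1.72 FPKM in WT (4.34, SE 0.24). AIL7, a PLETHORA-type factor of meristems, stood at 9.88, 7.69 and 7.71 FPKM in the line, against 0.4, 0.25 and 0.64 FPKM in WT (4.09, SE 0.26). GA2OX7, which inactivates gibberellin precursors, was called higher on few counts, with a ratio of 41.1 (11 to 344). AT1G34047, which encodes a defensin-like peptide, rose by 6.46 (SE 0.27) but overlaps AT1G34049 on the opposite strand, so its value is uncertain. ACA2, here an alpha carbonic anhydrase, rose by 4.13 (SE 0.23).

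Among the falls, AT4G04990 (chromosome 4, 2554997 to 2557258) had no count in any 35S:ERF13:MYC library, against 501 counts over the 3 WT libraries, which is at least 59.7-fold lower against a floor of 3 counts per library. In FPKM it was listed at 0 in the line, against 9.79, 12.41 and 11.43 in WT. NAC074, a NAC transcription factor, stood at 0, 0.06 and 0.12 FPKM in the line, against 10.3, 12.3 and 13.97 FPKM in WT, a ratio of 255 in favour of WT (86.9 to 1240). Both genes were thus near or at 0 in the line and clearly expressed in WT. SWEET11, a sucrose exporter known for phloem loading in leaves, stood at 3.77, 3.69 and 4.13 FPKM in 35S:ERF13:MYC roots, against 86.34, 100.37 and 90.53 FPKM in WT roots. SWEET11 fell by 4.69 on the log2 scale (SE 0.11, adjusted p = 2.6e-10). MRN1, the marneral synthase, stood at 13.32, 14.8 and 14.85 FPKM in the line, against 227.88, 268.33 and 248.71 FPKM in WT (-4.23, SE 0.12). These groups lay far apart relative to the spread within each.

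AT1G30700 and AT1G30720, neighbouring genes of the berberine bridge enzyme-like family of oxidases, changed alike. AT1G30700 stood at 2.9, 4.09 and 3.94 FPKM in the line, against 61, 65.55 and 85.43 FPKM in WT (-4.40, SE 0.23), and AT1G30720 fell by 4.61 (SE 0.21). PRF4, a profilin that binds actin, stood at 0.41, 0.33 and 0.49 FPKM in the line, against 6.06, 8.89 and 11.83 FPKM in WT (-4.54, SE 0.37). UGT71B8, a glycosyltransferase, fell by 4.21 (SE 0.33), and CEP1, a cysteine protease with an endoplasmic reticulum retention signal, fell by 4.14 (SE 0.37). CYP716A2, of a P450 family that oxidises triterpenes, fell by 5.29 (SE 0.57), and by 6.51 without 35S:ERF13:MYC replicate 1. For 4 large falls the size rests on WT replicate 3. PEPC1, a phosphoethanolamine/phosphocholine phosphatase, stood at 0.33, 0 and 0.14 FPKM in the line, against 3.85, 4.1 and 43.35 FPKM in WT. SPX3, a regulator of phosphate signalling, stood at 0.54, 0.55 and 0.54 FPKM in the line, against 2.88, 2.88 and 31.32 FPKM in WT. AT5G20790, an uncharacterised gene, stood at 5.15, 3.81 and 2.75 FPKM in the line, against 33.13, 33.31 and 139.94 FPKM in WT. The other WT libraries were still above the line in each case: without WT replicate 3 the log2 fold changes were -4.70 for PEPC1, -2.47 for SPX3 and -3.17 for AT5G20790, and -5.94 for the phosphate transporter gene PHT1;8, whose summed counts in WT were 150 times those in the line (26.5 to 5970).

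A few genes had counts in a single genotype. NATA1, an acetyltransferase that acts on ornithine, had 67 counts over the 3 libraries of 35S:ERF13:MYC and none in WT, so it was at least 6.95-fold higher, and the cysteine-rich receptor kinase gene EMB1290 had 108 counts in the line and none in WT (at least 11.2-fold higher). In the other direction, no count was seen in the line for AT2G28270, the receptor-like protein gene RLP22, AT3G13130 and AT4G09110, against 70, 61, 38 and 38 counts in WT. Those bounds were at least 8.34-fold lower for AT2G28270, 7.26-fold for RLP22 and 4.53-fold for AT3G13130 and AT4G09110.

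By the size of the difference in FPKM, AT5G37990 and ERF13 led the rises. AT5G37990, an S-adenosylmethionine-dependent methyltransferase, stood at 1516.61, 1368.88 and 1265.87 FPKM in 35S:ERF13:MYC roots, against 547.41, 586.44 and 538.26 FPKM in WT roots (log2 fold change 1.2, SE 0.11, adjusted p = 6.7e-06). AT2G05510, a glycine-rich protein, stood at 1422.64, 906.67 and 772.85 FPKM in the line, against 374.09, 287.53 and 342.29 FPKM in WT (1.52, SE 0.20). Even the lowest library of the line lay above the highest of WT for both, as the rule for differences in FPKM required. GSTF9 and GSTF10, glutathione S-transferases of the phi class, rose by 0.44 (SE 0.10) and 0.73 (SE 0.10). Among the falls, DR4, a Kunitz-type protease inhibitor homologue, stood at 1920.17, 1733.67 and 1806.04 FPKM in the line, against 4859.23, 5232.1 and 5555.13 FPKM in WT (-1.64, SE 0.12, adjusted p = 2e-06). DOX1, an alpha-dioxygenase that oxidises fatty acids, stood at 135.28, 135.08 and 173.36 FPKM in the line, against 1009.05, 1151.73 and 1294.36 FPKM in WT (-3.08, SE 0.15, adjusted p = 1.2e-07). AT4G11320, a papain-type cysteine protease, stood at 2087.84, 1913.22 and 1867.75 FPKM in the line, against 3030.05, 3380.22 and 3524.67 FPKM in WT (-0.88, SE 0.12). All 3 were lower in each library of the line than in any WT library, again as the rule required. Of the called genes whose genotypes did not overlap, AT1G21313 had the largest fall in FPKM, at 6001.73, 8696.65 and 5974.28 FPKM in the line, against 9943.18, 10020.77 and 16985.43 FPKM in WT (-0.97, SE 0.26). That rank rests on WT replicate 3, its highest value. The call was lost when 35S:ERF13:MYC replicate 3 was left out, and the log2 fold change was -1.17 to -0.63 with 1 library left out. AT1G21313 overlaps EXT3, a wall extensin on the opposite strand that fell by 1.00 (SE 0.19), so both values are uncertain.

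Windows of 250 bases before to 50 after the annotated start were searched on both strands for the GCC core GCCGCC, which 2.63% of the 19696 windows held. It was found in 3.94% of the windows of genes called higher in 35S:ERF13:MYC (107 of 2713) and in 1.57% of those called lower (55 of 3495). Among genes changed at least 2-fold, the share was 4.29% of those higher (18 of 420) and 0.892% of those lower (9 of 1009). At 8-fold and more it was 8.62% of those higher (5 of 58) and 1.04% of those lower (1 of 96). The DRE core CCGAC can share its first letters with the end of a GCC core. It was in 16.2% of all windows, 16.8% of those of genes called higher and 13.7% of those called lower. Its share was 14.8% at least 2-fold higher and 11.4% at least 2-fold lower, and at 8-fold and more 10.3% of those higher (6 of 58) and 16.7% of those lower (16 of 96). The W-box TTGACC, bound by WRKY factors, was in 14.6% of all windows, 15.1% of those of genes called higher and 15.7% of those called lower. It was in 24% of those of genes at least 2-fold higher (101 of 420) and in 17.4% of those at least 2-fold lower (176 of 1009). At 8-fold and more the W-box share was 22.4% of those higher (13 of 58) and 20.8% of those lower (20 of 96). The G-box CACGTG was in 8.73% of all windows, 6.86% of those of genes called higher and 9.67% of those called lower, and the auxin response element TGTCTC in 13.6%, 13% and 13%. These shares describe letters in a window and not sites of binding. None of the 20 genes with a symbol and the largest changes, ERF13 among them, held the GCC core.

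**Figure D3:**
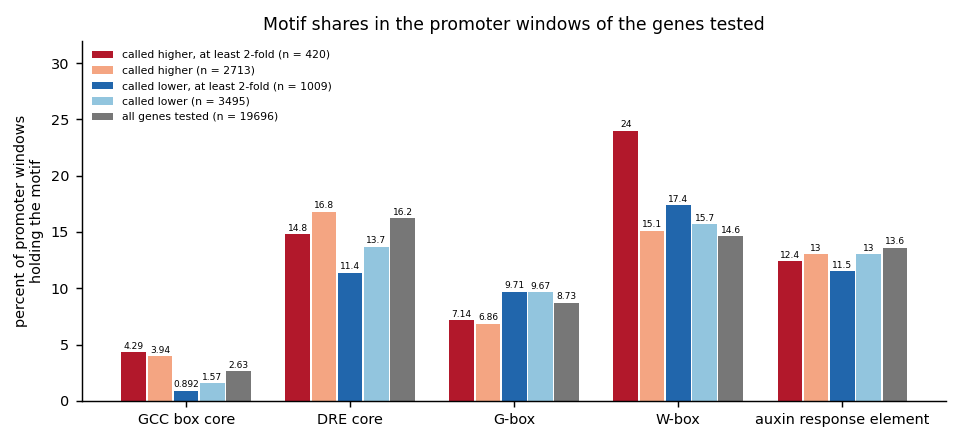
Percent of promoter windows (vertical axis) that hold each motif (horizontal axis); bars are genes called higher in 35S:ERF13:MYC, genes called lower and all genes tested, with n the windows. The GCC core share is 4.29% among genes at least 2-fold higher and 0.892% among genes at least 2-fold lower, against 2.63% of all windows. The W-box share is 24% among genes at least 2-fold higher, 17.4% among those at least 2-fold lower and 14.6% of all windows.

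The 5 genes at least 8-fold higher in 35S:ERF13:MYC with the GCC core in the window were picked after the shares were seen, and their upstream 250 bases are shown as the strongest changes beside that motif. AT1G72920, a TIR-domain protein of the immune receptor type, stood at 18.48, 11.46 and 6.01 FPKM in the line, against 1.13, 0.70 and 1.83 FPKM in WT (log2 fold change 3.19). AT1G71280, a DEAD-box RNA helicase, stood at 4.27, 3.87 and 3.56 FPKM in the line, against 0.49, 0.22 and 0.38 FPKM in WT (3.31). WOX2, a homeodomain factor of early embryo patterning, stood at 3.08, 2.59 and 2.83 FPKM in the line, against 0.19, 0.26 and 0.26 FPKM in WT (3.44). None of these overlapped between genotypes. AT5G19890, a class III peroxidase, rose by 3.90, and PUP7, of the purine permease family, by 4.0, though PUP7 overlaps AT4G18203 and cannot be read apart from it. Positions count from the annotated start, with -1 the base before it, and capitals mark the GCC core on either strand, GCCGCC or its complement GGCGGC. The core lies at -184 in AT1G72920, at -10 in AT1G71280 (and again past the start, at 39), at -234 in WOX2 and at -87 in AT5G19890, while that of PUP7 begins at 1, outside the bases shown. The stretches are chr1:27437649-27437898 (plus strand), chr1:26872153-26872402 (minus), chr5:23935051-23935300 (minus), chr5:6725967-6726216 (minus) and chr4:10071231-10071480 (plus) of TAIR10.1.
AT1G72920: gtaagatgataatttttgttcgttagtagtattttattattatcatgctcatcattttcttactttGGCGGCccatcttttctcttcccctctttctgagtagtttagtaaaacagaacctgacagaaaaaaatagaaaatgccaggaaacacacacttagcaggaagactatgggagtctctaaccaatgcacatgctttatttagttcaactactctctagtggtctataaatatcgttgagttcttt
AT1G71280: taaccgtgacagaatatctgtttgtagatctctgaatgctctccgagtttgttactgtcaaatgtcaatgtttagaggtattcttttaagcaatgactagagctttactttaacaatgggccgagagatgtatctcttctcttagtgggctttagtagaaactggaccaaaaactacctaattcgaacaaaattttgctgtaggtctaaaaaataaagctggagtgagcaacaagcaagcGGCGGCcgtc
WOX2: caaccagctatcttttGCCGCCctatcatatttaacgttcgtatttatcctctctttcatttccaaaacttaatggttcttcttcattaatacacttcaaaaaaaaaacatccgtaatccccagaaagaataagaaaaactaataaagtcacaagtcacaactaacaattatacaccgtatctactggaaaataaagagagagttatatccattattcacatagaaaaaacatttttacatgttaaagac
AT5G19890: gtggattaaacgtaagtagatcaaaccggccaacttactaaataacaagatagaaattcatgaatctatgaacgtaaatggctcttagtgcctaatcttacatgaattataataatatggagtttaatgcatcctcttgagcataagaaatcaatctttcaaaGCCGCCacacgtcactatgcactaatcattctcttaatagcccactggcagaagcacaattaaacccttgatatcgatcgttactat
PUP7: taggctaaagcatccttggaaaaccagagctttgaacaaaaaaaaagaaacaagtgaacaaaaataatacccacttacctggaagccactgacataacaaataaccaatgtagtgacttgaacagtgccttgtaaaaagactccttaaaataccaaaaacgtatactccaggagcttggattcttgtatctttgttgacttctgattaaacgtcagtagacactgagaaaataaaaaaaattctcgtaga

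Markers of cell types were counted next, against the 13.8% of all genes called higher and the 17.7% called lower. Of the 10 endodermis markers tested, none was higher and 8 were lower in 35S:ERF13:MYC roots (median log2 fold change -0.91), and 8 were lower whichever library was left out, with 1 higher without WT replicate 3. CASP1, a protein that scaffolds the Casparian strip, stood at 95.61, 90.03 and 97.27 FPKM in the line, against 150.48, 169.48 and 206.73 FPKM in WT (-1.02). CASP5, of the same family, stood at 16.25, 19.61 and 20.54 FPKM in the line, against 34.75, 41.5 and 37.72 FPKM in WT (-1.13). PER64, a peroxidase that acts in lignin deposition at the strip, fell by 1.06, and ESB1, a dirigent protein needed for that lignin, by 0.88. The lowest WT library lay above the highest library of the line for all 4. The endodermal fate factors SCR (0.23) and HSFB4 (0.14) were not called. Root hair markers gave 0 higher and 11 lower of 16 (median -0.61, and 8 to 11 lower with 1 library left out). RSL2, a bHLH factor that promotes hair growth, stood at 3.91, 4.43 and 6.11 FPKM in the line, against 9.61, 9.61 and 8.22 FPKM in WT (-1.04), and PRP1, a proline-rich wall protein, fell by 1.16.

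Of 10 xylem markers 6 were called lower (median -0.34), but leaving out WT replicate 2 or WT replicate 3 gave 3, leaving out 35S:ERF13:MYC replicate 2 or replicate 3 gave none, and library totals alone gave 2. Of 12 phloem markers 1 was higher and 1 lower, and the rise was lost when replicate 2 of either genotype, WT replicate 1 or 35S:ERF13:MYC replicate 3 was left out. Of 9 genes listed for non-hair cells and epidermis fate 1 was lower. That fall was lost when WT replicate 2 or 35S:ERF13:MYC replicate 1 or 3 was left out and joined by another for WT replicate 1. The list mixes fate regulators with markers, so it does not stand for non-hair cells alone. Meristem markers gave 1 higher of 9 (median 0.37, with 2 higher when WT replicate 1 was left out and 3 with library totals): BBM, a PLETHORA-type factor, stood at 3.6, 5.35 and 5.08 FPKM in the line, against 3.13, 2.05 and 2.29 FPKM in WT (0.78). Of 4 root cap markers 2 were higher and 1 lower (median 0.60), the fall being lost without WT replicate 2 or any 35S:ERF13:MYC library. The root cap markers SMB, BRN1 and BRN2 could not be matched to a single gene and were not counted. CEL5, a root cap cellulase, stood at 37.28, 43.95 and 42.04 FPKM in the line, against 22.19, 22.94 and 20.55 FPKM in WT (0.80), with no overlap. Pericycle markers gave 2 higher and 1 lower of 9, and no rise was left when WT replicate 2 or 35S:ERF13:MYC replicate 3 was left out.

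Transcripts of photosynthesis genes were present in both genotypes, and whether they came from root cells or from shoot tissue was not tested. Of 25 markers of photosynthesis, none was higher and 18 were lower in 35S:ERF13:MYC roots, 12 of them at least 2-fold (median -0.90, with 1 higher without 35S:ERF13:MYC replicate 3). Their summed level was 475, 371 and 308 FPKM in the line, against 677, 763 and 732 FPKM in WT. RBCS1A, the small subunit of Rubisco, stood at 38, 25.63 and 18.41 FPKM in the line, against 96.63, 109.79 and 101.11 FPKM in WT (-2.02), and no library of the line reached a WT library. No marker on the list was at 0 in a genotype. The part of this difference in the falls described here was not tested.

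**Figure D4:**
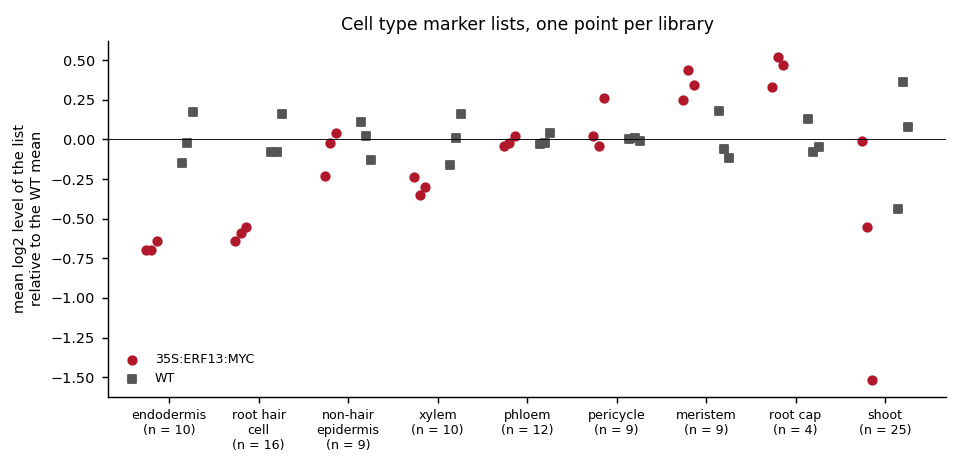
Mean log2 level of each marker list relative to its WT mean (vertical axis), 1 point per library, with 35S:ERF13:MYC libraries left of WT libraries and n the markers tested. The list drawn as non-hair epidermis also holds genes of epidermis fate. Endodermis markers lie at -0.70, -0.70 and -0.64 in the line, against -0.15, -0.02 and 0.17 in WT, and root hair markers at -0.64, -0.59 and -0.55 in the line, against -0.08, -0.08 and 0.16 in WT, while the shoot markers of photosynthesis spread more, at -0.01, -0.55 and -1.52 in the line, against -0.44, 0.36 and 0.08 in WT.

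Several families of secreted and wall proteins had more members called lower than higher. So had all genes tested, at 13.8% higher and 17.7% lower with TMM factors. Each list and family below is to be read beside those shares. Fasciclin-like and arabinogalactan proteins, glycoproteins of the wall and cell surface, gave 3 higher (1 without 35S:ERF13:MYC replicate 2) and 18 lower of 41 (median -0.33). AGP2 stood at 191.44, 162.72 and 180.3 FPKM in 35S:ERF13:MYC roots, against 353.64, 355.46 and 432.5 FPKM in WT roots (-1.21), and AGP31 was higher by 0.44, a call that did not hold when 35S:ERF13:MYC replicate 2 was left out (adjusted p = 0.076). Laccases, copper oxidases that polymerise phenolics in walls, gave 2 higher and 9 lower of 16 (median -0.53), with 1 higher when WT replicate 2 or 35S:ERF13:MYC replicate 1 or 2 was left out. LAC7 stood at 36.37, 38.45 and 47.29 FPKM in the line, against 230.78, 246.46 and 299.38 FPKM in WT (-2.78, SE 0.16), the lowest WT library lying far above the line. LAC3, which localises to the endodermis, fell by 0.89, while LAC1 rose by 0.73. Of 13 extensins 5 were lower (38.5%). Of 14 class III peroxidases 3 were higher (21.4%, and 5 genes without WT replicate 3) and 5 lower (35.7%). Prx37 stood at 53.41, 52.21 and 47.24 FPKM in the line, against 13.13, 9.99 and 12.28 FPKM in WT (2.0), and AT5G64120, another peroxidase, fell by 1.76. EXPA1, an expansin that loosens walls, rose by 1.13 (SE 0.20).

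Families set by the product text of the annotation were added after the data were seen, and they are given as descriptions. In the family of lipid transfer proteins and 2S albumin-like proteins, small secreted lipid binders, 30 of 44 were lower and none higher (median -0.78, and 0 to 1 higher and 27 to 31 lower with 1 library left out). A separate list of type 1 and 2 lipid transfer proteins, which shares 3 genes with that family, gave 2 higher and 3 lower of 9 (median 0.27), with 1 higher when replicate 2 of either genotype, WT replicate 1 or 35S:ERF13:MYC replicate 3 was left out. In that list LTP2 rose by 0.86 and LTP5 fell by 2.79. AT3G53980 stood at 332.4, 302.57 and 361.52 FPKM in the line, against 910.42, 935.99 and 923.22 FPKM in WT (-1.58), and AT1G62510 fell by 2.08. The UPF0497 family, membrane proteins that include the CASP proteins, gave 19 lower and none higher of 35 (median -0.70), of which 5 were also on the endodermis list. AT4G15610 stood at 151.14, 150.6 and 170.95 FPKM in the line, against 288.39, 315.9 and 315.68 FPKM in WT (-1.08), and AT2G39530 fell by 1.96. Dirigent proteins, which steer phenolic coupling, gave 11 lower and 1 higher of 17 (median -0.61), the rise being that of AT3G13650 (1.33). Berberine bridge enzyme-like oxidases gave 10 lower and 2 higher of 18 (median -1.02), with 10 lower whichever library was left out. Acyltransferases of the HXXXD type gave 24 lower and 4 higher of 42, and GDSL lipases 19 lower and 6 higher of 39, though 12 lower without 35S:ERF13:MYC replicate 2 and 3 higher without replicate 1 or replicate 3. Among the GDSL lipases, CDEF1, a cutinase, fell by 2.50 and AT3G27950 rose by 4.02.

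**Figure D5:**
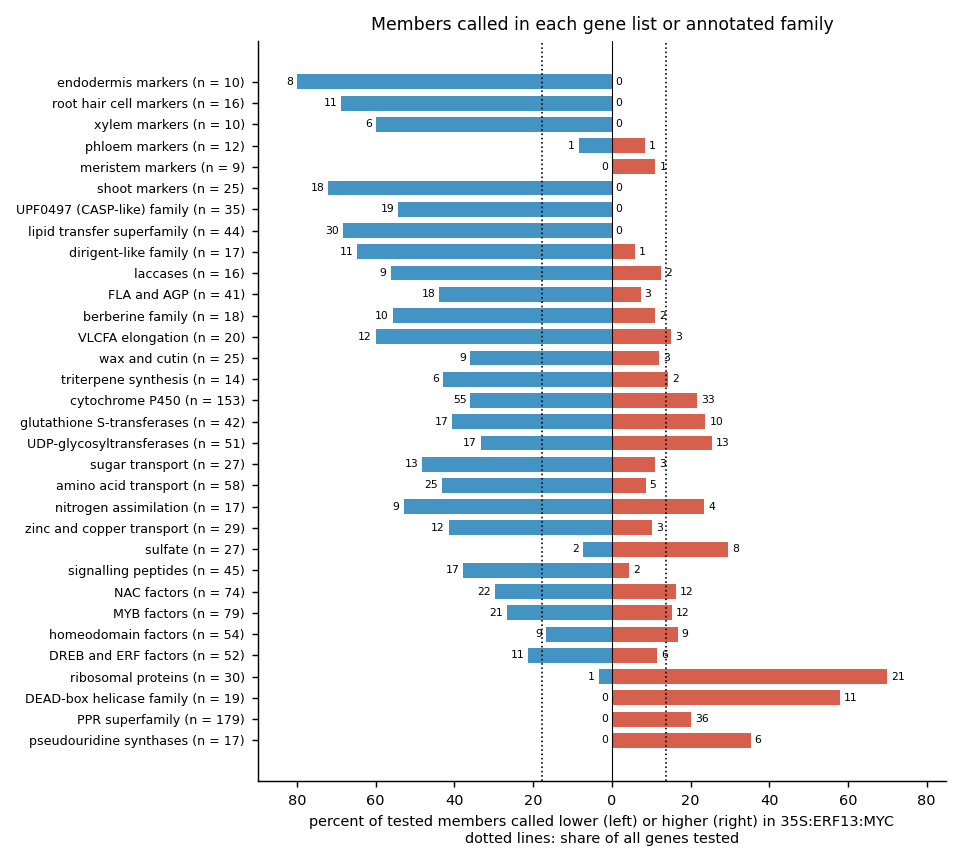
Percent of the tested members (n) of each gene list or family called lower (bars to the left) or higher (to the right) in 35S:ERF13:MYC roots, with counts at the bars and dotted lines at the percent of all genes called (13.8 higher, 17.7 lower). Of the lists drawn, endodermis, root hair and shoot markers show the highest shares of falls, and cytosolic ribosomal proteins the highest share of rises.

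Transport genes changed in both directions. Of 27 sugar transport genes, 3 were higher (11.1%) and 13 lower (48.1%), against 13.8% and 17.7% of all genes tested (median of the list -0.25). The SWEET exporters, set apart after their values were seen, made up most of the falls: 9 of 10 were lower (median -2.0), in every fit with 1 library left out as well. SWEET12, the close partner of SWEET11, stood at 14.33, 15.89 and 18.66 FPKM in 35S:ERF13:MYC roots, against 56.83, 59.19 and 46.38 FPKM in WT roots (-1.84), and SWEET2, a vacuolar member, stood at 4.88, 5.47 and 6.3 FPKM in the line, against 23.95, 23.56 and 21.63 FPKM in WT (-2.16). Neither overlapped between genotypes. SAG29, which is SWEET15, was not called (0.01). PMT5, a plasma membrane carrier of polyols and monosaccharides, went the other way, at 137.27, 114.35 and 118.61 FPKM in the line, against 26.17, 26.37 and 45.76 FPKM in WT (1.79, SE 0.22). STP14, a galactose carrier, was higher on few WT counts (ratio 37.9, 12.7 to 187).

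Nitrogen genes were more often lower. Amino acid and peptide transport gave 25 lower (43.1%) and 5 higher (8.62%) of 58 (median -0.36), against 17.7% and 13.8% of all genes tested. UMAMIT33, of a family of amino acid exporters, stood at 33.74, 33.32 and 41.78 FPKM in the line, against 88.81, 101.92 and 103.97 FPKM in WT (-1.56), and LHT1, an amino acid importer of roots, fell by 1.02. AAP6, an amino acid permease, was higher at 14.45, 13.51 and 13.13 FPKM in the line, against 3.28, 4.02 and 6.57 FPKM in WT (1.44), and OPT3, known for loading iron into the phloem, rose by 1.02. Ammonium transport and nitrogen assimilation gave 9 lower and 4 higher of 17 (median -0.52), with 2 higher when WT replicate 2 was left out and 1 for WT replicate 3 or 35S:ERF13:MYC replicate 2 or 3. GSR 1, a cytosolic glutamine synthetase, stood at 118.1, 122.28 and 122.58 FPKM in the line, against 180.78, 186.57 and 196.15 FPKM in WT (-0.75). In the NPF family of nitrate and peptide carriers, 10 of 24 were lower and 1 higher, with falls at 6 when WT replicate 2 was left out, at 5 for WT replicate 3 and at 4 for 35S:ERF13:MYC replicate 2, and the rise lost for WT replicate 3 or 35S:ERF13:MYC replicate 1 or 2. AT2G26690 stood at 56.16, 46.49 and 48.06 FPKM in the line, against 168.35, 151.01 and 171.44 FPKM in WT (-1.82).

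Sulfur genes leaned upward, with 8 higher (29.6%) and 2 lower (7.41%) of 27 (median 0.26), against 13.8% and 17.7% of all genes tested. The rises were 5 when WT replicate 1, WT replicate 2 or 35S:ERF13:MYC replicate 2 was left out. APS3, an ATP sulfurylase, stood at 10.38, 10.81 and 8.32 FPKM in the line, against 4.17, 4.67 and 4.43 FPKM in WT (1.04). The sulfate importer SULTR1;2, the main uptake route of roots, was lower, at 29.01, 26.48 and 30.63 FPKM in the line, against 67.65, 73.55 and 91 FPKM in WT (-1.59), and APS4 fell by 0.83. Zinc and copper transport gave 12 lower (41.4%) and 3 higher (10.3%) of 29. COPT2, a copper importer, stood at 21.49, 23.99 and 26.82 FPKM in the line, against 78.57, 85.84 and 102.89 FPKM in WT (-2.0). FRO5, a copper reductase of the root surface, stood at 7.62, 7.9 and 9.81 FPKM in the line, against 43.24, 45.01 and 43.58 FPKM in WT (-2.46), while its near-identical neighbour FRO4 was not called (0.01), so the split of reads between them is uncertain. HMA2, which exports zinc towards the xylem, rose by 1.28. CHX17, a cation/proton exchanger, stood at 4.5, 4.58 and 6.99 FPKM in the line, against 51.68, 63.27 and 69.84 FPKM in WT (-3.64, SE 0.19), although the list of potassium and sodium genes as a whole gave 2 higher and 4 lower of 21 (2 lower when replicate 2 or 3 of either genotype was left out, none higher for WT replicate 2 or 35S:ERF13:MYC replicate 1, and 1 higher for WT replicate 1 or 35S:ERF13:MYC replicate 2 or 3). BOR4, a boron exporter, fell by 1.34. Of the iron regulators, bHLH38 rose by 2.28 and FRU, the factor known as FIT, fell by 1.3.

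Ribosomal proteins and some families that act on RNA had more members called higher than lower. Of 30 cytosolic ribosomal protein genes, 21 were higher (70%) and 1 lower (3.33%), against 13.8% and 17.7% of all genes tested (median of the list 0.32). Leaving out WT replicate 2 gave 4 higher, and WT replicate 3 gave 8. Leaving out 35S:ERF13:MYC replicate 2 gave 6 and replicate 3 gave 5, while library totals alone gave 25. Their summed level was 6047 to 6694 FPKM across the libraries of the line, against 4088 to 5645 FPKM across those of WT, with WT replicate 1 nearest the line. STV1, a protein of the large subunit, stood at 221.37, 243.44 and 246.84 FPKM in the line, against 193.92, 159.68 and 132.94 FPKM in WT (0.44). Among families added after the data were seen, DEAD-box and related RNA helicases gave 11 higher and none lower of 19 (median 0.45), with 3 higher when WT replicate 3 or 35S:ERF13:MYC replicate 2 or 3 was left out and 6 for WT replicate 2. Pentatricopeptide repeat (PPR) proteins process organelle RNA, and the annotation spreads them over several product names. The largest of these gave 36 higher (20.1%) and none lower of 179 (median 0.32). Its rises were 17 when WT replicate 2 was left out, 15 for WT replicate 3, and 21, 14 and 17 for 35S:ERF13:MYC replicates 1, 2 and 3. The PPR-like family gave 6 higher (1 to 6 with 1 library left out) and 1 lower of 31, and a further PPR family 1 higher and 1 lower of 19. HSP60, a mitochondrial chaperonin, stood at 131.48, 155.29 and 145.38 FPKM in the line, against 105.7, 87.61 and 74.44 FPKM in WT (0.58). The 12 housekeeping genes gave 1 higher and 1 lower (median -0.20), and 3 higher and none lower with library totals alone. With DESeq2, the replicate block or the 6 libraries alone 4 were lower, and with 1 library left out 0 to 3.

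Enzymes of detoxification and specialised metabolism split both ways. Cytochrome P450 genes gave 33 higher (21.6%) and 55 lower (35.9%) of 153, against 13.8% and 17.7% of all genes tested. By at least 2-fold, 14 P450 genes were higher and 26 lower. CYP71B23 stood at 1.29, 1.75 and 1.55 FPKM in 35S:ERF13:MYC roots, against 10.41, 12.84 and 10.22 FPKM in WT roots (-2.97), and CYP735A2, which makes trans-zeatin cytokinins, stood at 26.31, 29.09 and 25.01 FPKM in the line, against 7.1, 7.09 and 8.17 FPKM in WT (1.76). Glutathione S-transferases gave 10 higher (23.8%) and 17 lower (40.5%) of 42 (11 lower without 35S:ERF13:MYC replicate 3). GSTU9 stood at 6.12, 8.15 and 10.56 FPKM in the line, against 58.67, 61.23 and 65.13 FPKM in WT (-3.01), and GSTL1 at 30.18, 24.16 and 24.98 FPKM in the line, against 5.8, 6.5 and 5.89 FPKM in WT (2.01). The families thus held large changes of either sign. Glycosyltransferases of the UGT type gave 13 higher (25.5%) and 17 lower (33.3%) of 51. UGT72E1, which glucosylates monolignol aldehydes, stood at 11.23, 10.24 and 12.99 FPKM in the line, against 60.09, 77.94 and 89.97 FPKM in WT (-2.85). ABCG42, a transporter gene, rose by 1.97, and ABCG6, a suberin precursor exporter, fell by 1.04.

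Triterpene genes gave 2 higher (14.3%) and 6 lower (42.9%) of 14 (median -0.26), with 1 higher when any library but WT replicate 3 was left out. Beside MRN1, its cluster partners CYP705A12 and CYP71A16 fell by 3.16 and 1.15, and in the thalianol cluster THAS1, the synthase, fell by 1.53 and CYP705A5 by 2.01. LUP1, a lupeol synthase, rose by 1.13. Of 20 genes of very-long-chain fatty acid elongation, 3 were higher and 12 lower (median -0.39). All 3 rises but only 2 of the 12 falls were of at least 2-fold. KCS3 stood at 14.42, 11.9 and 11.83 FPKM in the line, against 2.89, 2.45 and 2.63 FPKM in WT (2.15), opposite to KCS16, and KCS17 fell by 1.43. KCS2, a synthase known in suberin formation, stood at 113.04, 108.12 and 124.37 FPKM in the line, against 168.6, 164.31 and 183.02 FPKM in WT (-0.69). The most abundant elongation genes, such as KCS2 and KCS1 (-0.60), were thus lower by less than 2-fold. Wax and cutin genes gave 3 higher and 9 lower of 25, among them GPAT8 (-1.09), LACS2 (-0.81) and CYP86A4 (-0.83).

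Transcription factors followed no single direction. Of 52 DREB and ERF genes, 6 were higher (11.5%, ERF13 among them) and 11 lower (21.2%). These shares lay near the 13.8% higher and 17.7% lower of all genes tested. RAP2.9 rose by 2.57, while EBP fell by 1.54 and RAP2.6 by 1.35. NAC factors gave 12 higher (16.2%, and 7 genes without 35S:ERF13:MYC replicate 2) and 22 lower (29.7%) of 74. NAC047 stood at 0.88, 1.1 and 0.61 FPKM in 35S:ERF13:MYC roots, against 11.37, 13.2 and 14.14 FPKM in WT roots (-4.02), and NAC042 was higher, at 13.8, 13.38 and 10.08 FPKM in the line, against 1.5, 1.66 and 2.45 FPKM in WT (2.62). R2R3 MYB factors gave 12 higher (15.2%) and 21 lower (26.6%) of 79. MYB15, a regulator of lignin in defence, stood at 20.28, 13.77 and 8.03 FPKM in the line, against 1.09, 1.32 and 1.48 FPKM in WT (3.32), and MYB107, a regulator of suberin, at 2.95, 2.89 and 2.8 FPKM in the line, against 8.02, 8.8 and 8.75 FPKM in WT (-1.67). KNAT1, a homeodomain factor of the shoot meristem, stood at 18.2, 14.86 and 14.52 FPKM in the line, against 5.24, 6.4 and 4.73 FPKM in WT (1.43). None of these factors overlapped between genotypes.

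Hormone genes are set here beside the 13.8% of all genes called higher and the 17.7% called lower. Ethylene genes gave 5 higher (23.8%, and 3 genes without 35S:ERF13:MYC replicate 2) and 6 lower (28.6%) of 21. Brassinosteroid genes gave 4 higher and 4 lower of 19 (21.1% each), and gibberellin genes 2 higher and 2 lower of 27 (7.41% each). Without 35S:ERF13:MYC replicate 2 or 3, the falls were 2 for brassinosteroid and 1 for gibberellin. Cytokinin genes gave 8 higher (24.2%) and 10 lower (30.3%) of 33, among them genes of synthesis and of export. CYP735A2 was higher, as given above, and LOG7, which releases active cytokinins, was lower, at 11.09, 11.53 and 13.54 FPKM in the line, against 35.55, 39 and 42.88 FPKM in WT (-1.82). ABCG14, which exports cytokinins from roots to shoots, was higher by 0.40 (SE 0.07). ACS2 and ACS7, enzymes of ethylene synthesis, went opposite ways (0.88 and -2.10). Among 45 signalling peptides, 2 were higher and 17 lower, with 10 falls when WT replicate 2 was left out, 11 for 35S:ERF13:MYC replicate 2 and 10 for its replicate 3, and with 4 rises for WT replicate 3 and 1 for 35S:ERF13:MYC replicate 1. PSK4, a precursor of the growth peptide phytosulfokine, stood at 43.54, 44.49 and 49.68 FPKM in the line, against 128.05, 157.16 and 146.02 FPKM in WT (-1.76). CLE5, a CLE peptide gene, fell by 1.21, and PSK5 rose by 0.62.

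Adjacent genes were also followed along the chromosomes. There were 15 runs of at least 5 neighbouring tested genes called in the same direction, 14 of them lower. The run from AT1G30690 to AT1G30750 holds the berberine bridge enzyme-like genes named above, with AT1G30730 at 0.62, 1.01 and 1.52 FPKM in 35S:ERF13:MYC roots, against 13.78, 15.63 and 16.71 FPKM in WT roots (-3.99). Another holds the wall-associated kinase-like genes WAKL1, WAKL2, WAKL4 and WAKL5, at -2.33, -2.32, -4.83 and -2.04. A run on chromosome 5 holds CYP716A2 with its neighbour PEN3 (AT5G36150), a triterpene synthase, which fell by 4.62. The only run of rises, AT1G53970 to AT1G54010, holds mostly GDSL lipase genes, in which GLIP3 stood at 50.88, 43.28 and 45.19 FPKM in the line, against 4.08, 5.19 and 3.72 FPKM in WT (3.31) and GLL22 rose by 0.78. Neighbours of these kinds are often near-identical copies, and how shared reads were assigned is not given in the sources used here, so the split within a run is uncertain. The same holds for genes named here that overlap a gene on the opposite strand (KCS2, ABCG14, AT1G62510, LUP1, AT2G26690, ESB1, GSTF10, NAC042, bHLH38, APS3, UMAMIT33, CDEF1, CASP5, PER64 and APS4) and for ABCG42, which overlaps AT4G15230 on the same strand.

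The authors' deposited table for this line lists 1305 genes with their mean FPKM and a log2 ratio of the line over WT. In the authors' deposited table the log2 ratio was 9.57 for ERF13, 8.74 for AT4G33720, -4.58 for SWEET11 and -1.62 for KCS16.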

How the data were processed

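RNA was sequenced from roots of 9-day-old seedlings with random-primed cDNA on an Illumina instrument, per the labels' protocols. Per the file headers, the authors deposited 2 values per gene and library: the expected count, an estimate that need not be whole, and the FPKM, scaled for gene length and depth. Not given in the sources used here: aligner, counting tool, annotation, strand setting and genome build. All 1301 genes with coordinates in the authors' deposited comparison table lie within their RefSeq TAIR10.1 spans. Beside mean FPKM, that deposited table holds log2 ratios of the line over WT and a Probability score, which is no p-value.

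Genes absent from a library's table were taken as 0. Expected counts (88.7% to 89.9% of those above 0 were whole within 0.005) were rounded and tested with edgeR 4.0.16 (R 4.3.3): filterByExpr with a minimum count of 10, TMM factors (0.895 to 1.06), 1 quasi-likelihood fit of 9 libraries whose only terms were the genotype means (6 residual degrees of freedom, common coefficient of biological variation 0.104), Benjamini-Hochberg adjustment over 19714 genes, and calls at an adjusted p under 0.05. All adjusted p-values and log2 fold changes are from that fit, 35S:ERF13:MYC over WT. Each SE was derived from the F statistic (absolute log2 fold change over the root of F). Per-library values are the authors' FPKM. Intervals (exact, 95%) and the floor of 3 counts per library cover counting error only. The fit was also run on simulated data in which a small set of genes rose and fell in equal number. That run cannot speak to the scaling between libraries.

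Gene symbols, products and promoter windows came from RefSeq TAIR10.1 (23945 of 24140 genes matched). The members and the 56 gene lists (1893 genes) were chosen with earlier results of these data known. In all, 44 list entries were dropped because their names matched no gene or several. Among them were SMB, BRN1 and BRN2 (root cap), SGN1, SGN3 and BLJ (endodermis), and PEN2 and PEN3 (triterpene list). After values were seen, 5 genes of other families were left out of the lists. The product families, the SWEET group, the largest changes in fold among genes without a symbol and 5 of the printed promoters were then added. By rule, the text names ERF13, KCS16, the 10 rises and 10 falls largest in fold (called, with a symbol, FPKM averaging 1 or more, genotypes not overlapping), the 8 largest of each by difference in FPKM, and in each list the 2 called members with the smallest p per direction and the most abundant one. A gene outside the rule is named as an example chosen after its values were seen, as were SWEET2, SWEET12, ESB1, HSFB4, SCR and FRO4. Alternatives were other scalings, filters, DESeq2 1.42.0, limma 3.58.1 on log2(FPKM + 0.1) or log2(FPKM + 1), the 6 libraries alone, a replicate block and leaving out each library.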

Additional observations from a re-analysis of the deposited data

How the results depend on the processing

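Of the 303 called genes named by the rule or added, 249 kept their call in every setting that tested them, 51 lost it when 1 library was left out, and none changed sign. The count of calls stayed within 1.5 times 6209 in every setting but the fit without 35S:ERF13:MYC replicate 2, which gave 3903. The highest count with 1 library left out was 6442 (without WT replicate 1). The count of higher calls was 1441 to 2757 with 1 library left out. It was 4214 with library totals alone, 4092 with limma on log2(FPKM + 0.1) and 4167 with limma on log2(FPKM + 1), and the last also gave 505 genes lower by at least 2-fold in place of 1009. These settings use no TMM factor, and a pseudocount of 1 shrinks the change of low genes. DESeq2 made 5778 calls.

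Replicate numbers did not pair the libraries: the deviations of same-numbered libraries of 35S:ERF13:MYC and WT correlated at -0.259, 0.0944 and -0.197. The highest correlation of any pair was 0.311, for 35S:ERF13:MYC replicate 1 and WT replicate 3. With the replicate block 6523 genes were called, and 1 of the 303 named calls was lost. With 3 libraries per genotype, genes at a few counts have wide intervals, as given beside their ratios. Among the 30 cytosolic ribosomal protein genes none changed by 2-fold, and the 21 rises became 4 to 25 with 1 library left out.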
